A study of Mus musculus with 9 samples.

Results

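Splenic T cells recovered after a syngeneic hematopoietic stem cell transplant were compared with splenic T cells of healthy mice across all genes of the deposited count table. The comparison used 3 syngeneic and 3 naive libraries, 6 of the 9 libraries of the series, chosen by their labels alone. Naive libraries came from C57BL/6 mice (CD45.2), not transplanted. For the syngeneic libraries, splenic T cells of C57BL/6 donors were given to B6.SJL-Ptprca Pepcb/BoyJ recipients, which carry CD45.1 and the same H-2b major histocompatibility type as the donors. These recipients had received 9.5 Gy from a cesium source on the day before, and they were given 8500000 T cells with 5000000 C57BL/6 bone marrow cells from which T cells had been depleted through CD90.2. They drank acidified water from the day of irradiation, and spleens were taken on day 7. Donors and recipients were female and 8 to 12 weeks old, and the protocol gives no separate age for the naive mice, which were of the donors' strain. Each syngeneic library pooled 2 to 4 recipients and is labelled an independent biological replicate. Whether naive libraries were pools is not stated, and p-values then measure only the spread between these libraries, which may be technical. Before sorting for live CD3+ CD45.2+ cells, T cells of both groups were enriched by a magnetic pan-T-cell kit. The CD45.2 allele is carried by the injected T cells and by everything that grew from the injected marrow, so that the kit and the CD3 stain, and not CD45.2, separated them. Irradiation, transfer, water and the host's surroundings came together in the syngeneic group and cannot be told apart. The other group, donor T cells from allogeneic recipients (CByJ.SJL(B6)-Ptprca/J, H-2d, 8 Gy, 1000000 T cells and 5000000 marrow cells, also day 7), is given below only as values set beside the comparison. The strain tag names B6.SJL-Ptprca Pepcb/BoyJ for all 9 libraries, against the naive titles, and was not used.

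T cells placed in a host emptied by irradiation divide without foreign antigen, a process called homeostatic or lymphopenia-induced expansion. It is driven by interleukin-7 and interleukin-15 and by contact with self peptides, and the dividing cells take on features of memory cells. The mouse spleen is also a site of red cell and granulocyte production in the adult. Transplanted marrow is known to regrow there, with erythroid precursors prominent in the early days.

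Total counts were 113382060 to 138312206 per naive library and 107823729 to 130302320 per syngeneic library. Levels are given as counts per 1000000 (CPM) of the TMM-scaled library, a scaling that takes the bulk of genes as level between libraries. Where a group had no count, its floor was set at 3 counts summed over its libraries, which covers counting error only. Gm26917 and Gm42418, taken from background knowledge to collect ribosomal RNA reads, held 15.8 to 18.8% of naive and 19.4 to 22.4% of syngeneic counts. T-cell receptor genes marked all 6 libraries as T cells, with Cd3e (the CD3 epsilon chain) at 648 to 717 CPM in naive and 395 to 531 CPM in syngeneic libraries. Syngeneic library 1 stood apart from the other syngeneic libraries, with lower marrow-type transcripts. The 32 erythroid genes searched for held 0.347, 0.967 and 0.823% of counts in syngeneic libraries 1, 2 and 3, against 0.00722 to 0.00812% in naive libraries. Early neutrophil granule genes were also lowest in syngeneic library 1, with 0.0336, 0.107 and 0.118%, against 0.000161 to 0.000397% in naive libraries. T-cell receptor complex and identity genes ran the other way, with 0.609, 0.505 and 0.529% in syngeneic and 0.709 to 0.777% in naive libraries. Counts of some lists are therefore also given without syngeneic library 1, and a count given only once may differ without it.

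**Figure D1:**
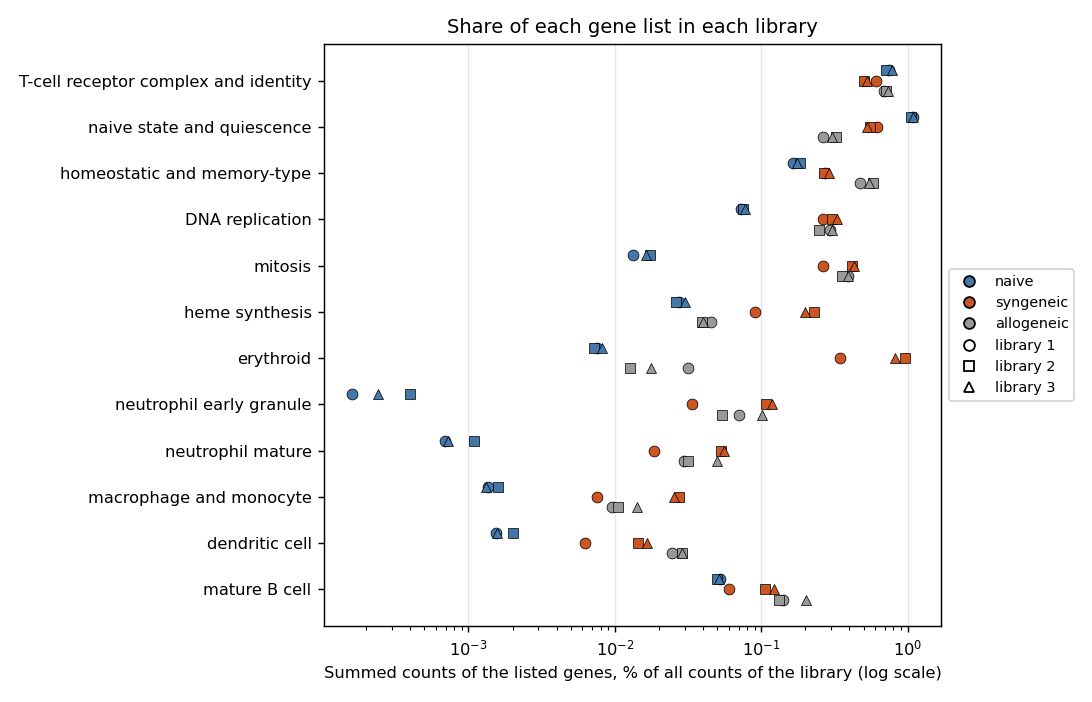
Summed counts of 12 gene lists as a percent of all counts of a library, on a log axis. Each point is 1 library, colour marks the group and shape the library number. Erythroid genes take 0.347 to 0.967% of syngeneic counts and 0.00722 to 0.00812% of naive counts, and syngeneic library 1 (circles) is the lowest syngeneic library in each marrow-type list.

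Cell division genes and transcripts of red cell and granulocyte precursors were higher in syngeneic libraries, while genes of the naive T-cell state and of the T-cell receptor complex were lower. Of 19609 genes tested, 4386 were higher (22.4%) and 3827 lower (19.5%) at an adjusted p under 0.05 by edgeR's quasi-likelihood test with Benjamini-Hochberg adjustment over all genes, 41.9% in all. Large changes were mostly upward. A change of at least 2-fold was called for 2633 genes upward (13.4%) and 970 downward (4.95%), and one of at least 32-fold for 563 genes upward and 2 downward. The median log2 fold change over all genes was 0.01. The split between higher and lower depends on the scaling: with the T-cell receptor complex and identity genes as library size, 7824 genes were higher and 983 lower, and the median of all genes moved to 0.42. The share of higher calls was then 88.8%, against 53.4%. Identity scaling is used below for this setting. In 5295 genes (27.0%) every syngeneic library lay above every naive library, and in 5319 (27.1%) below. Without syngeneic library 1, 4490 were higher and 3940 lower. Since these are bulk samples, fewer cells of a type and less RNA per cell cannot be told apart in any result below.

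Genes of the T-cell receptor complex were lower in syngeneic libraries. Of 16 genes of this list, 12 fell and 4 were not called, with a median log2 fold change of -0.58. Cd3e (ENSMUSG00000032093, chromosome 9, 44998740 to 45009627 of GRCm38) was at 706, 648 and 717 CPM in naive libraries 1, 2 and 3 and at 531, 395 and 403 CPM in syngeneic libraries 1, 2 and 3. Its log2 fold change was -0.64 ± 0.12 (SE; adjusted p by edgeR = 0.00104). The groups did not overlap, and syngeneic library 1, with the fewest marrow-type transcripts, was nearest to the naive libraries. Cd5, which encodes a receptor that dampens T-cell receptor signals, fell most among the members, from 377 ± 24.2 to 224 ± 29.0 CPM (-0.75 ± 0.10). Thy1, the surface protein CD90 of mouse T cells, was at 886 ± 96.5 CPM in naive and 964 ± 177 CPM in syngeneic libraries and was not called. With identity scaling, that is scaled to this list itself, 3 members were lower and 3 higher. Without syngeneic library 1 the count was 14 lower. The summed share of this list was lowest in syngeneic library 2, where the erythroid share was highest, whereas the early neutrophil granule share was highest in library 3. In allogeneic libraries this list held 0.686 to 0.738% of counts, early neutrophil granule genes 0.0543 to 0.101% and erythroid genes 0.0127 to 0.0314%. The part that marrow-type transcripts played in the difference between syngeneic and naive libraries was not tested.

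The balance of the coreceptors moved from CD4 toward CD8. Cd4 was at 439.7, 413 and 469.6 CPM in naive and 238, 194 and 167 CPM in syngeneic libraries (-1.14 ± 0.13; adjusted p by edgeR = 4.81e-05). Cd8a rose, with 415, 385 and 454 CPM in naive and 701, 507 and 565 CPM in syngeneic libraries (0.50 ± 0.13; adjusted p by edgeR = 0.00844). Neither gene had overlapping groups. Zbtb7b, which encodes ThPOK, the factor that fixes the CD4 lineage, fell with Cd4, from 188 ± 18.5 to 76.7 ± 7.88 CPM (-1.29 ± 0.11). Cd8b1, the beta chain of CD8, was at 448 ± 44.2 and 504 ± 114 CPM and was not called. Within a library no scaling can move the log2 ratio of counts of Cd8a over Cd4, which was -0.08, -0.10 and -0.05 in naive and 1.56, 1.38 and 1.75 in syngeneic libraries. The difference was 1.64 (exact 2-sided permutation p = 0.1, the smallest p that 3 against 3 libraries can give). In counts, Cd8a stood at 0.948 times Cd4 in naive and 2.96 times in syngeneic libraries. Counts of allogeneic libraries gave log2 ratios of -0.48, 0.05 and 0.07.

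Genes of the naive and quiescent state were lower in syngeneic libraries almost throughout. Of 20 members, 18 fell and 2 were not called, with a median log2 fold change of -0.85, or 19 lower without syngeneic library 1. With identity scaling, 14 were lower and 2 higher. Lef1 (ENSMUSG00000027985, chromosome 3, 131110471 to 131224356), a transcription factor of naive T cells, was at 836, 853 and 921 CPM in naive and 379.8, 312 and 288 CPM in syngeneic libraries (-1.41 ± 0.12; adjusted p by edgeR = 5.52e-06). Tcf7, which encodes its partner TCF-1, fell from 1559 ± 60.6 to 804 ± 151 CPM (-0.96 ± 0.15). Ccr7, the chemokine receptor that brings T cells into lymph nodes, was at 476, 432 and 512 CPM in naive and 248, 176 and 171 CPM in syngeneic libraries (-1.25 ± 0.16). S1pr1, the receptor by which they leave, fell from 572 ± 18.5 to 239.8 ± 37.3 CPM (-1.26 ± 0.11). All 4 genes had lower values in every syngeneic library than in any naive library. Btg1, an RNA-decay factor that keeps T cells quiescent, fell from 1111 ± 46.3 to 566 ± 71.6 CPM (-0.97 ± 0.11), and Actn1, which encodes the actin crosslinker alpha-actinin, from 654, 563 and 672 CPM to 312, 221 and 214 CPM (-1.34 ± 0.18). The lower level was shared by allogeneic libraries, where Lef1 was at 132, 169 and 158 CPM and Ccr7 at 10.7, 13.7 and 14.5 CPM.

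Genes of memory-type T cells were higher. In this list 14 of 18 members rose and 2 fell (median 0.79), with 14 higher without syngeneic library 1. Eomes (ENSMUSG00000032446, chromosome 9, 118478212 to 118486132), a T-box factor of memory CD8 T cells, was at 57.1, 54.9 and 55.0 CPM in naive and 179, 137 and 163 CPM in syngeneic libraries (1.52 ± 0.14; adjusted p by edgeR = 8.2e-06). Tbx21, which encodes its relative T-bet, was at 27.0, 37.7 and 36.3 CPM and then 101, 72.4 and 109.8 CPM (1.49 ± 0.17). No value of these 2 genes overlapped between the groups, and syngeneic library 2 was the lowest syngeneic library in both. Gzmk, the granzyme of memory-type CD8 T cells, was at 1.45, 2.19 and 2.02 CPM and then 7.43, 5.45 and 6.35 CPM (1.77 ± 0.20; adjusted p by edgeR = 3.29e-05). Itga4, the alpha-4 integrin chain, was a member that fell (-0.53 ± 0.12), a call lost with identity scaling (-0.10). Eomes was at 82.8, 66.9 and 55.0 CPM in allogeneic libraries.

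The receptors for the cytokines of homeostatic expansion moved in opposite directions. Il2rb, the shared chain of the interleukin-2 and interleukin-15 receptors, was at 321, 356 and 356 CPM in naive and 802, 676 and 813 CPM in syngeneic libraries (1.15 ± 0.11; adjusted p by edgeR = 8.47e-06). Il7r, the specific chain of the interleukin-7 receptor, fell from 419, 357 and 447 CPM to 173, 194 and 166 CPM (-1.20 ± 0.15; adjusted p by edgeR = 6.87e-05). Neither gene had overlapping groups. Cish, a feedback inhibitor that STAT5 induces, rose from 35.5 ± 2.13 to 68.6 ± 2.88 CPM (0.95 ± 0.08), and Pim1, a survival kinase induced by the same route, rose from 149 ± 3.67 to 333 ± 7.13 CPM (1.16 ± 0.08). Il2ra, the high-affinity chain of the interleukin-2 receptor, fell from 55.8 ± 2.89 to 41.3 ± 5.49 CPM (-0.43 ± 0.10), a call not made with identity scaling (0.00). Of 17 genes of common gamma chain receptors and their feedback, 4 rose, 4 fell and 9 were not called (median 0.30), shares near those over all genes tested (22.4% higher and 19.5% lower), so that nothing is read from the count. With identity scaling the count was 10 higher and 2 lower. Among BCL2 family genes, Bcl2, an interleukin-7 target that protects from apoptosis, rose by 0.63 ± 0.11, and its relative Bcl2l1 (BCL-XL) by 1.82 ± 0.09. Of 14 family members tested 5 rose, 2 fell and 7 were not called (median 0.12), beside 22.4% higher and 19.5% lower over all genes. With identity scaling 7 were higher and none was lower (median 0.54), and 1 was lower without naive library 1 (median 0.04).

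**Figure D2:**
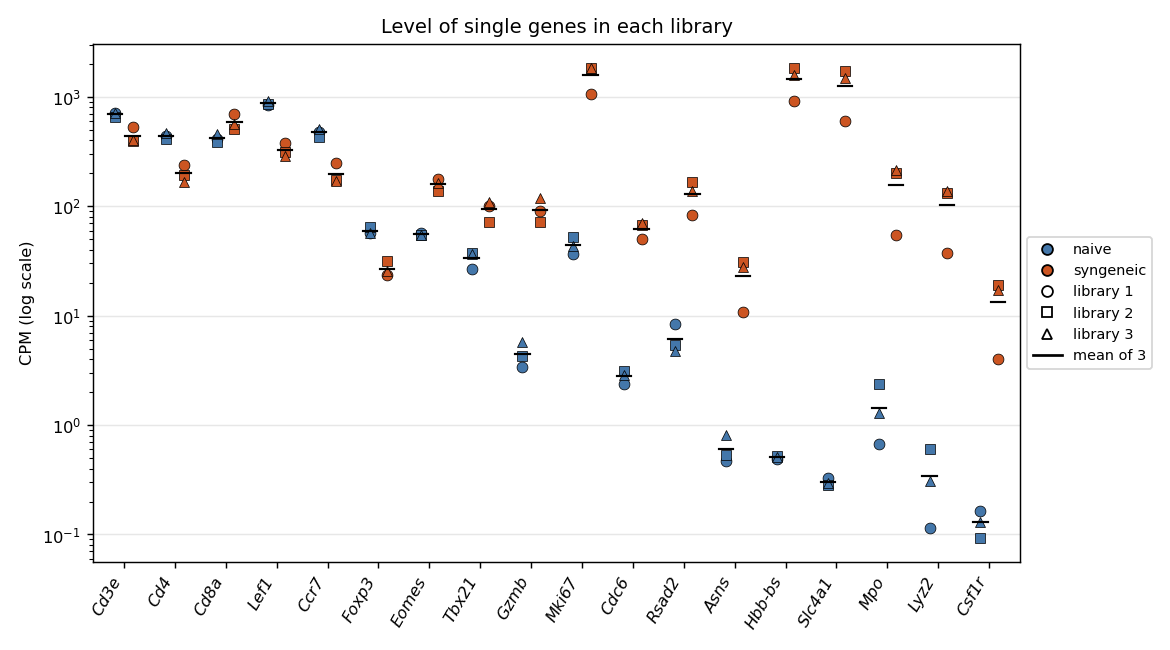
CPM of 18 genes in the 3 naive (blue) and 3 syngeneic (orange) libraries, on a log axis, with the mean of each group as a bar and the library number as the shape. Cd3e, Lef1 and Eomes differ by under 4-fold between the group means, whereas Gzmb and Mki67 differ by more. Hbb-bs and Slc4a1 move from under 1 CPM to 601 CPM or more.

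Granule genes of killer cells were higher, while checkpoint receptor genes were mixed. In the cytotoxic list 10 of 16 genes rose and 6 were not called (median 0.85). Gzmb (ENSMUSG00000015437, chromosome 14, 56258838 to 56262260), the protease granzyme B, was at 3.38, 4.32 and 5.79 CPM in naive and 90.0, 71.5 and 119 CPM in syngeneic libraries (4.38 ± 0.23; adjusted p by edgeR = 8.7e-08). Gzmm, which encodes granzyme M, was at 5.23, 4.799 and 6.68 CPM and then 42.1, 35.2 and 44.8 CPM (2.87 ± 0.14). The groups of both genes were apart, and syngeneic library 2 was the lowest syngeneic library in both. Ifng, which encodes the cytokine interferon gamma, rose from 2.44 ± 0.392 to 10.8 ± 0.446 CPM (2.15 ± 0.12), and Gzma, granzyme A, rose from 3.76 ± 1.22 to 21.4 ± 4.72 CPM (2.51 ± 0.25). In allogeneic libraries Gzmb was at 1636, 1469 and 1587 CPM, and Gzmm at 11.7, 11.8 and 12.2 CPM.

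Of 15 inhibitory receptor and exhaustion genes 6 rose, 3 fell and 6 were not called (median 0.06), with 8 higher and 1 lower under identity scaling. Shares over all genes tested were 22.4% higher and 19.5% lower. The lower share of the list is near the latter, and nothing is read from it. Pdcd1, which encodes the checkpoint receptor PD-1, fell from 22.5, 26.6 and 21.2 CPM to 15.4, 14.3 and 15.6 CPM (-0.63 ± 0.10; adjusted p by edgeR = 0.000344), and its call was lost with identity scaling (-0.23). Tox, a transcription factor of exhausted T cells, fell from 88.0, 93.8 and 88.4 CPM to 46.2, 47.0 and 41.2 CPM (-1.01 ± 0.08; adjusted p by edgeR = 1.53e-06). Cd160, a receptor of memory CD8 T cells and natural killer cells, rose from 15.2, 17.8 and 16.95 CPM to 50.6, 39.6 and 48.3 CPM (1.47 ± 0.11). Havcr2, which encodes TIM-3 and which macrophages also express, rose from 0.278, 0.461 and 0.472 CPM to 3.53, 3.41 and 5.95 CPM (3.43 ± 0.26). It stood at 112, 125 and 137 CPM in allogeneic libraries. Pdcd1 was at 345, 314 and 359 CPM there.

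Genes that report signalling through the T-cell receptor did not move as a block. Of 12 such genes 4 rose, 5 fell and 3 were not called (median -0.03), a median that turned to 0.39 with identity scaling, where the count was 6 higher and 4 lower. Egr2, an early growth response factor induced by antigen, fell from 28.9, 23.9 and 24.2 CPM to 11.9, 10.2 and 10.1 CPM (-1.26 ± 0.14; adjusted p by edgeR = 2.73e-05), and Egr3 fell from 21.3 ± 2.33 to 8.58 ± 1.09 CPM (-1.31 ± 0.14). Tnfaip3, which encodes the NF-kappaB inhibitor A20, rose from 132, 112 and 101 CPM to 444, 488 and 322 CPM (1.86 ± 0.18). Nr4a1, a widely used reporter of receptor signal strength, was at 57.5, 54.6 and 52.6 CPM in naive and 55.7, 61.8 and 56.3 CPM in syngeneic libraries and was not called. Its groups overlapped. Fos and Fosb, components of the AP-1 factor that cell handling also induces, rose by 1.98 ± 0.26 and 3.13 ± 0.34, with Fosb at 30.3, 19.8 and 11.6 CPM in naive and 171, 204 and 164 CPM in syngeneic libraries. Of 12 immediate early genes 6 rose and 4 fell (median 0.38).

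Costimulation and activation genes were divided, with 6 of 15 higher and 7 lower (median -0.21), and with 7 higher and 1 lower and a median of 0.20 with identity scaling. Without naive library 1, naive library 3 or syngeneic library 3, 4 were lower. Slc7a5, the large amino acid transporter that growing T cells need, rose from 58.3, 59.4 and 53.6 CPM to 136, 150.3 and 157 CPM (1.37 ± 0.10; adjusted p by edgeR = 1.75e-06). Cd40lg, the ligand by which CD4 T cells help B cells, fell from 37.8, 31.7 and 38.3 CPM to 17.8, 17.3 and 14.9 CPM (-1.11 ± 0.11). Myc, the growth regulator, rose from 137 ± 5.74 to 199.9 ± 21.4 CPM (0.54 ± 0.09).

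Regulatory T-cell genes were lower. Of 10 members 7 fell and 1 rose (median -0.88), 7 fell without syngeneic library 1, and 4 were lower with identity scaling. Foxp3 (ENSMUSG00000039521, chromosome X, 7573644 to 7595245), the factor that defines the lineage, was at 57.2, 65.0 and 57.1 CPM in naive and 23.4, 31.5 and 25.7 CPM in syngeneic libraries (-1.15 ± 0.14; adjusted p by edgeR = 7.98e-05). Lrrc32, which encodes the TGF-beta docking protein GARP, fell from 26.7, 29.3 and 29.2 CPM to 6.87, 6.98 and 5.36 CPM (-2.15 ± 0.22). Gpr83, a receptor enriched in these cells, fell from 20.8, 21.9 and 23.6 CPM to 4.90, 4.59 and 3.33 CPM (-2.37 ± 0.26). The groups of all 3 genes were apart, and Cd4 itself fell by 1.14, a difference in size that was not tested. In allogeneic libraries Foxp3 was at 24.6, 34.2 and 25.2 CPM.

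Innate-like and gamma delta T-cell genes fell in the main, with a pair of exceptions. Of 10 genes 6 fell and 2 rose (median -0.83), with 3 lower under identity scaling. Trdc, the constant segment of the T-cell receptor delta chain, was at 40.3, 45.0 and 39.9 CPM in naive and 14.8, 13.95 and 11.8 CPM in syngeneic libraries (-1.63 ± 0.15; adjusted p by edgeR = 1.03e-05). Zbtb16, which encodes PLZF, the factor of innate-like T cells, fell from 7.72, 13.1 and 8.58 CPM to 1.12, 1.71 and 1.73 CPM (-2.69 ± 0.25). The scavenger receptor genes Cd163l1 (SCART1) and 5830411N06Rik (SCART2), marks of interleukin-17-type gamma delta T cells, rose. Cd163l1 was at 3.60, 5.83 and 4.12 CPM and then 17.5, 17.5 and 21.95 CPM (2.07 ± 0.31), and 5830411N06Rik at 2.87, 3.31 and 3.62 CPM and then 26.2, 20.6 and 25.2 CPM (2.88 ± 0.14). Bcl6, which directs follicular helper cells, fell from 36.2, 35.2 and 29.0 CPM to 12.4, 12.6 and 13.4 CPM (-1.39 ± 0.13). Of 13 helper lineage genes 10 were tested, of which 6 fell and 2 rose (median -0.99). Leaving out a library, which brought more of the list into the test, moved the median to between -0.32 and -0.44. The count without naive library 2 was 5 higher and 5 lower. Identity scaling gave 3 higher and 2 lower.

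Among homing receptor genes, Ccr2, a receptor for inflammatory chemokines, rose from 8.84, 13.4 and 13.7 CPM to 52.4, 62.4 and 69.4 CPM (2.36 ± 0.18; adjusted p by edgeR = 1.77e-06). Ccr9, the receptor for the gut and thymus, fell from 44.3, 45.8 and 54.2 CPM to 14.1, 12.7 and 9.47 CPM (-1.99 ± 0.27), and Itgae, the integrin CD103 that binds epithelium, fell from 87.9, 81.9 and 105 CPM to 35.8, 35.6 and 23.4 CPM (-1.54 ± 0.17). None of these 3 genes had overlapping groups. Of 17 homing and adhesion genes 5 rose, 4 fell and 8 were not called (median -0.04, or 0.37 with identity scaling). Without syngeneic library 1, 6 were higher and 6 lower. Over all genes tested 22.4% were higher and 19.5% lower, close to the shares of this list, and nothing is read from its count.
Every tested gene of DNA replication and of mitosis was higher in syngeneic libraries. All 22 replication genes rose, with a median log2 fold change of 2.36, and all 20 mitosis genes rose, with a median of 4.45, under each alternative run. Mki67 (ENSMUSG00000031004, chromosome 7, 135689784 to 135716361), the proliferation antigen Ki-67, was at 36.5, 52.6 and 43.0 CPM in naive and 1068, 1818 and 1817 CPM in syngeneic libraries (5.15 ± 0.23; adjusted p by edgeR = 3.37e-08). Top2a, the topoisomerase that untangles chromosomes, was at 27.1, 33.2 and 36.9 CPM and then 575, 646 and 708 CPM (4.31 ± 0.17). Cdk1, the kinase that drives entry into mitosis, was at 2.98, 3.10 and 3.09 CPM and then 56.8, 70.6 and 80.3 CPM (4.50 ± 0.20). The groups lay far apart for each of these genes, and syngeneic library 1 was the lowest of its group in each. Among replication genes, Cdc6, which loads the replicative helicase, moved most, from 2.39, 3.12 and 2.89 CPM to 50.3, 67.3 and 69.8 CPM (4.48 ± 0.17; adjusted p by edgeR = 2.29e-08). Rrm2, a subunit of the enzyme that makes deoxynucleotides, rose from 8.88, 11.2 and 11.0 CPM to 162, 233 and 240.2 CPM (4.35 ± 0.19). The helicase gene Mcm2 was present before, at 78.6, 75.6 and 79.5 CPM in naive libraries, and stood at 250.2, 241 and 273 CPM in syngeneic libraries (1.71 ± 0.10).

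Cell-cycle regulators rose in most cases, 17 of 21 higher and 2 lower (median 2.06). E2f8, a repressor of the E2F family that is induced in S phase, rose from 2.29, 3.57 and 2.77 CPM to 63.1, 105 and 111 CPM (5.02 ± 0.23). Ccne2, the cyclin E2 of the entry into S phase, rose from 0.955, 0.612 and 0.585 CPM to 12.7, 19.7 and 18.0 CPM (4.54 ± 0.24). Ccnd2, the D-type cyclin of resting and stimulated T cells, was at 784 ± 31.6 and 651 ± 111 CPM and was not called, but was called lower without syngeneic library 1 (-0.42) and with library sizes alone (-0.31). Cdkn1b, which encodes the inhibitor p27, fell from 188, 165 and 205 CPM to 107, 107 and 98.7 CPM (-0.84 ± 0.09), and Cdkn1a, which encodes the inhibitor p21 and is a p53 target, rose from 0.256, 0.268 and 0.393 CPM to 4.16, 5.67 and 7.16 CPM (4.21 ± 0.25). Of 17 p53 targets 7 rose and 5 fell (median 0.26), against 11 higher and 1 lower with identity scaling (median 0.67). The lower count was 2 without naive library 1 or 3 or syngeneic library 3 and 3 without syngeneic library 2. Beside these counts, 22.4% of all genes tested were higher and 19.5% lower. The list median stood 0.25 above that of all genes under either scaling, so the list moved with all genes between the scalings. Mdm2, the p53 ligase, was at 62.7 ± 4.14 and 64.5 ± 0.813 CPM and was not called.

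Erythroid precursors also divide, so the division genes are set beside the erythroid share of each library. Mitosis genes held 0.265, 0.414 and 0.433% of counts in syngeneic libraries 1, 2 and 3 and 0.0133, 0.0173 and 0.0163% in naive libraries. In allogeneic libraries they held 0.393, 0.355 and 0.391%, where erythroid genes held 0.0314, 0.0127 and 0.0176%. Early neutrophil granule genes held 0.0700, 0.0543 and 0.101% in allogeneic libraries and 0.0336, 0.107 and 0.118% in syngeneic libraries 1, 2 and 3. Syngeneic library 1, with 2.93-fold less of the median erythroid gene than the mean of the other syngeneic libraries, had 1.37-fold less of the median mitosis gene and 1.06-fold less of the median replication gene. How much of the division genes' counts came from T cells was not tested.

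Sequences of promoters are shown for Cdk1 and Cdc6 because the lists they belong to moved together and carry known cell-cycle elements. They are from RefSeq for GRCm38.p6, run 5′ to 3′ on the strand of the gene from 250 bases before to 50 after the start, and capitals mark matches on either strand. In Cdk1 (chr10:69352863-69353162, minus strand) these are the CCAAT box, in reverse as ATTGG, and the cell-cycle homology region TTTGAA. In Cdc6 (chr11:98907901-98908200, plus strand) this is the E2F site TTTCCCGC, in reverse.
Cdk1: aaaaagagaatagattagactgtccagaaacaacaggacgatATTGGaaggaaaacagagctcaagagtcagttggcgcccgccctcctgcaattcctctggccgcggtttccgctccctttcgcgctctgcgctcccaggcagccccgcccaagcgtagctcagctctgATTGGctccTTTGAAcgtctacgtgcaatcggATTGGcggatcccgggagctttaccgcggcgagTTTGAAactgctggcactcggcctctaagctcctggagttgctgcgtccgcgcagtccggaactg
Cdc6: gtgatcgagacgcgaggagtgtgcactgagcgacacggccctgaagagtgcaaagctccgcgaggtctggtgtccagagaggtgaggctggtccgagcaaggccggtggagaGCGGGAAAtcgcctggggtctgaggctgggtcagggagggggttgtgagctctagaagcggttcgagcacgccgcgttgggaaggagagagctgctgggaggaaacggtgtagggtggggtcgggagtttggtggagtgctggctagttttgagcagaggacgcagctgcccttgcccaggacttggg
CCAAT was found in 14 of 16 mitosis promoters in the table (87.5%) and 37.9% of all 27025 promoters of this length, TTTGAA in 11 of 16 (68.8%) and 18.1% of all. The CCAAT share also exceeded that of all promoters in replication (64.7%), early neutrophil granule (54.5%), naive-state (52.9%) and erythroid (52.4%) promoters. It was 37.5% in type I interferon and 33.3% in heme synthesis promoters. TTTCCCGC or TTTGGCGC was found in 8 of 17 replication promoters (47.1%) and in 1.63% of all, and no mitosis promoter held it. A match is a description of the letters, not of binding.

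Genes of growth metabolism rose in part, with most of the nucleotide supply list higher. Of 18 serine, folate and nucleotide synthesis genes 17 rose (median 0.82), and 14 without syngeneic library 1. Psat1, an enzyme of serine synthesis, rose from 29.5, 29.5 and 32.5 CPM to 83.5, 69.8 and 77.8 CPM (1.34 ± 0.15; adjusted p by edgeR = 2.99e-05). Shmt1, the cytosolic enzyme that moves carbon from serine to folate, rose from 10.0, 10.4 and 11.3 CPM to 33.3, 25.5 and 29.2 CPM (1.47 ± 0.16), and Shmt2, its mitochondrial form, rose from 75.9 ± 1.40 to 156 ± 17.3 CPM (1.04 ± 0.11). Asns, asparagine synthetase, differed from its list in size and in spread, from 0.470, 0.529 and 0.813 CPM to 10.9, 31.0 and 27.7 CPM (5.27 ± 0.47). Its level in syngeneic libraries 2 and 3 averaged 2.70 times that of library 1, against 0.884 for Psat1, a spread like that of erythroid genes. Whether marrow-derived cells gave its reads was not tested, and allogeneic libraries held 19.0, 8.30 and 10.8 CPM.

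Of 18 glycolysis genes 11 rose and 7 were not called (median 0.43), with 17 higher under identity scaling and 10 without syngeneic library 1. Hk2, the inducible hexokinase, rose from 4.55, 4.64 and 4.74 CPM to 22.9, 23.8 and 27.7 CPM (2.42 ± 0.11; adjusted p by edgeR = 4.07e-08), while the glucose transporter gene Slc2a1 was at 45.6 ± 2.24 and 46.1 ± 5.95 CPM and was not called. Of 24 nuclear genes of oxidative phosphorylation 11 rose (median 0.29), or 8 without syngeneic library 1, 7 without naive library 1 or syngeneic library 3, and 24 with identity scaling. Of 21 tricarboxylic acid cycle genes 8 rose and 1 fell (median 0.17), or 18 higher with identity scaling. Cox5a, a subunit of the terminal oxidase, rose from 33.7 ± 2.77 to 60.9 ± 5.19 CPM (0.85 ± 0.12). Of 18 ribosome biogenesis genes 13 rose (median 0.40), or 10 without syngeneic library 1. They were led by Gnl3, the nucleolar GTPase nucleostemin (0.88 ± 0.12), and Ncl, nucleolin, which rose from 436 ± 12.7 to 765 ± 34.6 CPM (0.81 ± 0.08). Genes of the unfolded protein response and of chaperones in the endoplasmic reticulum had 9 of 16 higher (median 0.33), or 15 with identity scaling, with the chaperone gene Sdf2l1 rising from 9.41 ± 0.414 to 31.6 ± 3.44 CPM (1.75 ± 0.14). Fatty acid oxidation had 3 of 18 genes higher and 3 lower (median -0.14, or 0.27 with identity scaling). Cholesterol synthesis had 3 of 19 higher and 4 lower (median 0.06). Leaving out a library left as few as 1 gene higher in the former (without naive library 1 or 2 or syngeneic library 3) and 1 higher in the latter (without naive library 1 or syngeneic library 2). The 4 lower in the latter became 2 without any of 5 libraries, syngeneic library 1 being the exception. With identity scaling these became 7 and 12 higher, the latter with a median of 0.47. Shares over all genes tested were 22.4% higher and 19.5% lower, close to those of both lists, and nothing is read from their counts.

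Some interferon response genes were higher and others were not called. Of 23 type I interferon response genes 12 rose, 2 fell and 9 were not called (median 0.44). With identity scaling 18 were higher and neither fall was called (median 0.83). Rsad2 (ENSMUSG00000020641, chromosome 12, 26442746 to 26456452), known as viperin and antiviral, moved most, from 8.36, 5.38 and 4.74 CPM to 82.7, 165 and 137 CPM (4.38 ± 0.31; adjusted p by edgeR = 9.73e-07). Isg15, a ubiquitin-like modifier, rose from 10.8, 9.46 and 8.64 CPM to 29.0, 31.1 and 34.2 CPM (1.71 ± 0.13), and Oas3, an RNA-sensing synthetase, from 75.6, 72.0 and 57.5 CPM to 208, 179 and 205 CPM (1.53 ± 0.13). Ifit1, a classical target of the same pathway, was at 30.3, 21.3 and 22.1 CPM in naive and 25.8, 24.0 and 22.01 CPM in syngeneic libraries and was not called. Libraries 2 and 3 averaged 1.83 times library 1 for Rsad2, 1.12 times for Isg15 and 0.926 times for Oas3, so that library 1 lay far below the others for Rsad2 alone of these 3, as it did for marrow-type transcripts. Its source was not tested. Among 19 interferon gamma response genes 8 rose (median 0.31), or 17 with identity scaling, and Ciita, the regulator of class II major histocompatibility genes, rose from 0.335, 0.285 and 0.280 CPM to 2.14, 4.38 and 4.83 CPM (3.65 ± 0.40), with libraries 2 and 3 averaging 2.15 times library 1. Of 10 class I presentation genes 2 rose, 1 fell and 7 were not called (median -0.18, or 0.22 with identity scaling). Beside 22.4% higher and 19.5% lower over all genes tested, nothing is read from this count. Without syngeneic library 1 the count was 1 higher and 5 lower.

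The promoter of Rsad2 is shown because this gene changed most in its list (chr12:26456403-26456702, minus strand, RefSeq for GRCm38.p6). Capitals mark the core of the interferon-stimulated response element, searched as GAAA, any pair of bases and GAAA, and found in reverse.
Rsad2: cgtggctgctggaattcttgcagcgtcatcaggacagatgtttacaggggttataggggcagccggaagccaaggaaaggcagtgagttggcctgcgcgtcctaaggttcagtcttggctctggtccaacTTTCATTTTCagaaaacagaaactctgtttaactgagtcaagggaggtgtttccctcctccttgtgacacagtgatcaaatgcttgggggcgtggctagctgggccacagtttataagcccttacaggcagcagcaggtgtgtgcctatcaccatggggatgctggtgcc
The element was present in 9 of 16 promoters of the type I interferon list (56.3%) and in 3.49% of all promoters. Its carriers in the list included Ifit1, which was not called, and Isg15, which rose.

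Erythroid transcripts rose, most of them from very low levels. All 31 erythroid genes tested rose, with a median log2 fold change of 8.64, and 31 rose without syngeneic library 1 (median 9.01). Hbb-bs (ENSMUSG00000052305, chromosome 7, 103826534 to 103828096), which codes for adult beta-globin and shares reads with a near-identical neighbour, was at 0.492, 0.520 and 0.515 CPM in naive and 916, 1854 and 1572 CPM in syngeneic libraries (11.47 ± 0.44; adjusted p by edgeR = 2.29e-08). Slc4a1 (ENSMUSG00000006574, chromosome 11, 102348824 to 102366203), the anion exchanger band 3 of the red cell membrane, was at 0.328, 0.285 and 0.297 CPM and then 601, 1712 and 1491 CPM (12.02 ± 0.65). Slc25a37, the mitochondrial iron importer mitoferrin, was at 30.9, 28.3 and 34.7 CPM and then 245, 619 and 515 CPM (3.88 ± 0.29). In each of these genes the lowest syngeneic library was library 1, and even there the groups were far apart. The embryonic globin genes Hbb-y, Hbb-bh1 and Hba-x were not tested for lack of counts: none had a count in naive libraries, and their highest syngeneic value was 0.163 CPM.

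Heme and iron genes rose with them. Of 13 heme synthesis genes 11 rose and 1 fell (median 2.43). Alas2 (ENSMUSG00000025270, chromosome X, 150547375 to 150570638), the erythroid form of the enzyme that opens the pathway, was at 0.107, 0.0755 and 0.105 CPM in naive and 161, 372 and 316 CPM in syngeneic libraries (11.51 ± 0.51; adjusted p by edgeR = 3.35e-08). Alas1, the form that all cells use, was at 24.8, 23.6 and 27.9 CPM and 29.6, 29.0 and 34.0 CPM and was not called, but was called higher in a fit of the 6 libraries alone and with a filter of at least 1 CPM. Further along the pathway Fech, ferrochelatase, which inserts the iron, rose from 22.7, 20.8 and 26.2 CPM to 96.1, 235 and 207 CPM (2.95 ± 0.33). Of 13 genes of iron uptake, storage and export 9 rose (median 2.89). Tfrc, the transferrin receptor, which dividing T cells also express, rose from 20.3, 19.1 and 20.4 CPM to 131, 356 and 271 CPM (3.66 ± 0.34), with 57.3, 28.8 and 39.8 CPM in allogeneic libraries. Erfe, the hormone erythroferrone by which erythroblasts release iron stores, rose from 0.185, 0.0336 and 0.0699 CPM to 4.53, 14.1 and 10.2 CPM (6.58 ± 0.57). The ferritin chain genes Fth1 and Ftl1 were at 257 ± 35.8 and 169 ± 6.90 CPM in syngeneic libraries, against 241 ± 18.6 and 161 ± 18.5 CPM in naive libraries, and were not called.

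The promoters of Alas2 and Hbb-bs are shown for the erythroid group (chrX:150547167-150547466, plus strand, and chr7:103827879-103828178, minus strand, RefSeq for GRCm38.p6, windows as above). Capitals mark the GATA site AGATAA, which reads TTATCT in reverse, and in Hbb-bs also the CACCC site CCACACCC.
Alas2: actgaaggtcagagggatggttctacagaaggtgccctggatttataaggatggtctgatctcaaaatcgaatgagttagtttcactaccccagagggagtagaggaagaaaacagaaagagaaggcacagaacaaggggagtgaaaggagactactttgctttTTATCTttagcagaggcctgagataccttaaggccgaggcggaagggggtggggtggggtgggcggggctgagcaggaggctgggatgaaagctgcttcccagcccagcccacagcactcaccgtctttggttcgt
Hbb-bs: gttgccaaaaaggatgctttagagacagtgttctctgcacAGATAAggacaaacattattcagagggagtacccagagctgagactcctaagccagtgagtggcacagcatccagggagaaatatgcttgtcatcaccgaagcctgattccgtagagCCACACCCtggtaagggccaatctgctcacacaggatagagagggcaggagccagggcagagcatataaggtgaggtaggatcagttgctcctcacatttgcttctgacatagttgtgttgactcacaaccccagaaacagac
AGATAA or TGATAA was found in 14 of the 21 erythroid promoters in the table (66.7%) and in 19.0% of all promoters, and CCACACCC in 2 of 21 (9.52%) and 3.57% of all. The CCACACCC share was similar or higher in type I interferon (12.5%), replication (11.8%) and early neutrophil granule (9.09%) promoters, so it did not set erythroid promoters apart. No heme synthesis, mitosis or naive-state promoter held it. Among heme synthesis promoters, 2 of 9 held a GATA site (22.2%), that of Alas2 included, a share near that of all promoters. The site was in 2 of 11 early neutrophil granule promoters (18.2%) and in 4 of 16 type I interferon promoters. Of the 17 naive-state promoters in the table, 2 held a GATA site (11.8%). It was also in 1 of 17 replication and 1 of 16 mitosis promoters.

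Granulocyte and macrophage genes, nearly absent from naive libraries, rose. All 12 early granule genes and all 12 genes of mature neutrophils rose, with medians of 9.23 and 7.13, and the latter was 6.09 with the members that had no naive count at their bounds. Ngp, a granule protein of neutrophil precursors, was at 0.235, 0.0839 and 0.149 CPM in naive and 105, 288 and 325 CPM in syngeneic libraries (10.54 ± 0.59; adjusted p by edgeR = 1.47e-07). Mpo, myeloperoxidase of the earliest granules, was at 0.670, 2.37 and 1.29 CPM and then 54.8, 202 and 212 CPM (6.77 ± 0.75). S100a9, a calcium-binding protein abundant in mature neutrophils, was at 0.299, 1.31 and 0.585 CPM and then 111, 279 and 311 CPM (8.34 ± 0.57). Fcnb, the granule lectin ficolin-B, had no count in naive libraries and was at 2.30, 10.1 and 8.50 CPM in syngeneic libraries, at least 869-fold higher. Groups of all 4 genes were apart, with library 1 lowest among the syngeneic libraries. In the macrophage and monocyte list 19 of 20 genes rose (median 6.04). Lyz2, lysozyme, was at 0.114, 0.604 and 0.306 CPM and then 37.0, 132 and 138 CPM (8.26 ± 0.69), and Csf1r, the receptor for the macrophage growth factor, at 0.164, 0.0923 and 0.131 CPM and then 4.03, 19.1 and 17.2 CPM (6.68 ± 0.60). In allogeneic libraries Ngp was at 173, 185 and 313 CPM and Csf1r at 2.32, 1.34 and 1.62 CPM.

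Genes of other marrow-derived cell types were mostly at low levels. Of 13 dendritic cell genes tested 12 rose (median 4.24), among them Cd74, the class II invariant chain, from 6.33, 8.16 and 6.75 CPM to 29.6, 58.0 and 68.6 CPM (2.88 ± 0.34). Of 14 mast cell, basophil and eosinophil genes 12 rose (median 4.57). Epx, eosinophil peroxidase, was at 0.0356, 0.00839 and 0.0699 CPM and then 0.950, 5.91 and 3.94 CPM. Of 14 stem and progenitor genes 9 rose and 5 were not called (median 1.47), with Kit, the stem cell factor receptor, at 5.14, 6.44 and 5.33 CPM in naive and 3.15, 9.65 and 9.97 CPM in syngeneic libraries, in overlapping groups. Of 13 megakaryocyte genes tested 8 rose and 1 fell (median 2.23), and 12 rose without syngeneic library 1. The list's summed share of counts was nevertheless lower, 0.0108 to 0.0114% in syngeneic against 0.0156 to 0.0175% in naive libraries. Its highest member, Itgb3, the integrin beta-3 chain, fell from 163, 142 and 170.3 CPM to 101, 87.7 and 86.8 CPM (-0.79 ± 0.14), a call not made with identity scaling (-0.37). Gp9, a platelet glycoprotein, was at 0, 0.0168 and 0.0349 CPM and then 0.336, 1.31 and 0.965 CPM. Endothelial and stromal genes, 7 of 12 tested, had 1 higher and 1 lower (median 0.73). Over all genes tested the shares were 22.4% higher and 19.5% lower, and nothing is read from this count. Summed over all 12, their share of counts was lower, 0.0101 to 0.0116% in syngeneic against 0.0219 to 0.0223% in naive libraries. Pecam1 was the only tested member with a mean of at least 1 CPM in syngeneic libraries, so the sum says little about the other members.

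B-lineage genes rose in part. Of 9 early B-lineage and thymocyte genes 4 rose, 1 fell and 4 were not called (median 2.31), with 7 higher without syngeneic library 1 or naive library 2. Of 17 mature B-cell genes 10 rose and 7 were not called (median 2.10), and of 9 plasma cell genes 7 rose (median 3.05), or 4 without syngeneic library 3. Igkc, the immunoglobulin kappa constant segment, was at 4.40, 10.6 and 5.36 CPM in naive and 44.9, 192 and 219 CPM in syngeneic libraries (4.48 ± 0.56; adjusted p by edgeR = 7.92e-05). Cd22, an inhibitory receptor of B cells, was at 4.43, 6.44 and 6.19 CPM and then 69.7, 63.2 and 86.3 CPM (3.69 ± 0.17). These 2 genes differed in their spread, since libraries 2 and 3 averaged 4.57 times library 1 for Igkc and 1.07 times for Cd22. Ms4a1, which encodes CD20, was at 1.65, 1.67 and 1.43 CPM and 1.49, 2.49 and 2.06 CPM and was not called. Of 13 natural killer cell genes 8 rose and 1 fell (median 1.26; 11 rose without syngeneic library 1), with Tyrobp, an adaptor also of myeloid cells, from 0.613, 0.705 and 0.743 CPM to 4.801, 14.03 and 16.3 CPM (4.09 ± 0.41). Ncr1, which defines natural killer cells, was at 0.150, 0.487 and 0.149 CPM and 0.262, 0.795 and 0.820 CPM and was not called, but was called higher without syngeneic library 1 or naive library 2 and by DESeq2.

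**Figure D3:**
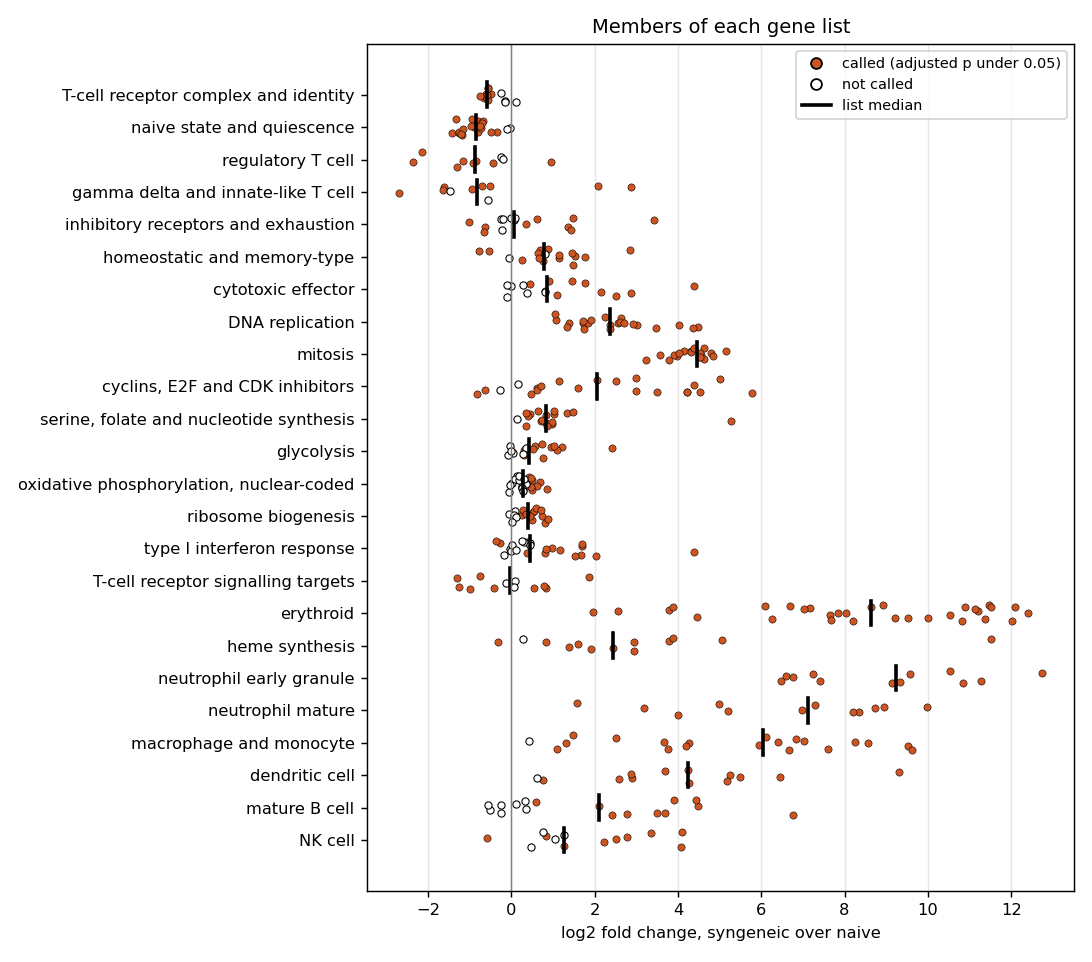
Log2 fold change (syngeneic over naive) of each tested member of 24 gene lists. Filled points passed an adjusted p of 0.05, open points did not, and black bars are list medians, which run from -0.88 in the regulatory T-cell list to 9.23 in the early neutrophil granule list.

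The spread among the 3 syngeneic libraries differed between lists of genes that rose. For each of 12984 tested genes with a mean of at least 1 CPM in syngeneic libraries, the mean of libraries 2 and 3 was divided by library 1. The median of this ratio over all these genes was 0.967. It was 2.93 for erythroid, 3.24 for early neutrophil granule and 4.17 for macrophage and monocyte genes, and library 1 was the lowest in all 31, 12 and 17 genes of these lists that entered. In contrast it was 0.916 for memory-type, 0.960 for cytotoxic, 1.06 for replication and 0.871 for ribosome biogenesis genes, and 0.774 for the T-cell receptor complex. Mitosis genes lay between these, at 1.37, with library 1 lowest in all 20. Marrow-type lists were not all alike. The ratio was 2.49 for dendritic cell and 3.91 for plasma cell genes, but 1.51 for natural killer and 1.57 for mature B-cell genes. For megakaryocyte genes it was 1.10. Library 1 was lowest in 9 of 12 mature B-cell and 3 of 6 megakaryocyte genes. The ratio rose with the size of the change. It was 1.5 or more for 305 of 309 genes called at least 32-fold higher (98.7%), for 62 of 1707 genes called higher by less than 2-fold (3.63%), and for 10.7% of all genes that entered. Erythroid genes were not alike among themselves: the globin gene Hba-a1, which is nearly identical to Hba-a2, had a ratio of 1.86 and Hbb-bs of 1.87, whereas the ratio was 2.66 for Slc4a1. The ratio is a description of 3 libraries, was chosen after their values were seen, and has no test. It uses the same syngeneic values as the fold change, so its rise with the size of the change does not come from independent data.

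**Figure D4:**
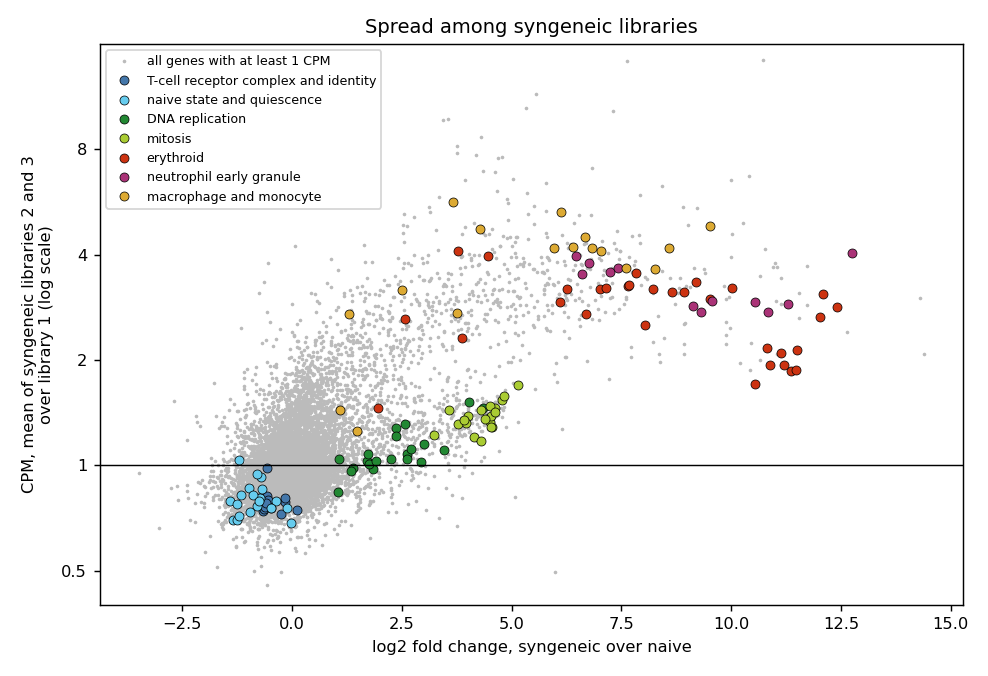
For 12984 genes, the ratio of the mean CPM of syngeneic libraries 2 and 3 to that of library 1 (vertical, log axis) against the log2 fold change of syngeneic over naive (horizontal), where 7 genes lie above the top of the axis. Erythroid genes lie at ratios of 1.46 to 4.10 and early neutrophil genes at 2.74 to 4.04, while replication genes, with log2 fold changes up to 4.48, lie at 0.842 to 1.52.

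Outside the lists, some of the genes that moved most are known from red cells. Tinagl1, a basement membrane protein, had no count in naive libraries and was at 8.65, 27.5 and 24.5 CPM in syngeneic libraries, at least 2521-fold higher. Sox6, a transcription factor of red cell maturation, was at 0.0214, 0.0336 and 0.0349 CPM and then 25.9, 98.1 and 80.2 CPM (11.13 ± 0.90; adjusted p by edgeR = 2.77e-06), and Slfn14, an endoribonuclease of platelets and red cells, at 0, 0.0755 and 0 CPM and then 24.5, 53.8 and 44.2 CPM (10.66 ± 0.62). Library 1 was the lowest syngeneic library for each. Among protein-coding genes outside the lists that fell without overlap and had at least 10 CPM in naive libraries, St8sia6, a sialyltransferase, changed most, from 72.5, 66.9 and 86.0 CPM to 6.93, 7.99 and 5.24 CPM (-3.48 ± 0.22; adjusted p by edgeR = 4.31e-07). Abca1, the transporter that exports cholesterol, fell from 58.8, 69.0 and 66.4 CPM to 18.7, 16.3 and 14.3 CPM (-1.98 ± 0.14), and Ldhb, the heart-type lactate dehydrogenase chain, from 16.4, 14.7 and 19.0 CPM to 4.56, 4.40 and 3.55 CPM (-2.00 ± 0.17). Il6st, the signalling chain gp130 of the interleukin-6 receptor, fell from 611, 585 and 596 CPM to 292, 248 and 238 CPM (-1.20 ± 0.13). These losses had no overlap between groups, and in allogeneic libraries St8sia6 was at 0.966, 0.602 and 1.21 CPM and Il6st at 59.2, 74.3 and 86.5 CPM.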

How the data were processed

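Stranded, ribosome-depleted RNA libraries were made from the sorted splenic T cells, per the labels' protocols, and 6 of 9 libraries entered the comparison. The authors deposited raw read counts per gene, and the submitters' processing notes name the GRCm38 build and HTSeq 0.6.1, Bowtie2 2.2.1, TopHat2 2.0.13 and FastQC 0.11.3. Neither the strand setting nor the annotation release of the counting is given there, so overlapping genes, antisense ones included, may hold each other's reads. Near-identical copies can share reads.

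The table held 29229 genes, of which 29014 matched GENCODE M21, the source of symbols and coordinates, and 541 had no count. Genes were filtered by edgeR 4.0.16 (filterByExpr by group), scaled by TMM and fitted by the quasi-likelihood test in 1 model of all 9 libraries, which share the estimate of spread (residual degrees of freedom 6). The residual spread corresponded to a biological coefficient of variation of 0.193. Calls needed a Benjamini-Hochberg adjusted p under 0.05. The standard error (SE) was the log2 fold change divided by the root of F. Values after ± for CPM are SDs (n = 3). Replicates differed by more than sampling noise. Steps were tested on simulated data in R 4.3.3 and Python 3.11.15.

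Genes of a list could be named as its 4 called members with the largest change, its 3 highest by CPM or its first 3 as written. Outside the lists the rule took the 10 protein-coding genes per direction with the largest change, at least 10 CPM in the higher group and no overlap, and the 5 highest genes per direction with a change of at least 2-fold. Lists overlap in members, and some genes that the rule allows are not reported here. The comparison, members and lists were chosen with earlier results of these data known. Alternatives covered scaling, filter, tool (DESeq2 1.42.0, limma 3.58.1), libraries in the fit, replicate block, ribosomal and erythroid genes, and leaving out each library.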

Additional observations from a re-analysis of the deposited data

How the results depend on the processing

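With the summed counts of T-cell receptor complex and identity genes as library size, 7824 genes were higher and 983 lower, 3 genes of that list and 4 of the regulatory T-cell list were lower, and Il2ra (0.00), Itgb3 (-0.37), Pdcd1 (-0.23) and Itga4 (-0.10) lost their calls, as no other called gene named in the report did under any alternative run. The same scaling called Alas1, Cd8b1, Fth1, Ftl1, Mdm2, Ncr1, Nr4a1, Slc2a1 and Thy1 higher. A filter of at least 1 CPM in 3 libraries left 9 macrophage and monocyte genes higher, since fewer were tested. Leaving out a library gave 3668 to 4490 genes higher and 2679 to 3940 lower. The other alternatives gave 4742 higher and 3863 lower by DESeq2 (with 6101 adjusted p-values missing), 4249 and 3920 by limma-voom, and 3763 and 3479 with the filter of at least 1 CPM. Apart from the scaling to T-cell genes, the share of calls that were higher was between 48.5 and 57.8% in all alternatives run. No called gene named in the report changed direction in them.

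Libraries of the groups share only a replicate number. Deviations of same-numbered libraries correlated at 0.08, 0.26 and -0.02, and not every library correlated best with its own number, so the numbers were not taken to pair them. With the replicate block 4325 genes were higher and 3710 lower, of which 4204 and 3583 were called without it.

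Depth was at least 107823729 counts in each of the 6 libraries, and 3 counts over a group are worth 0.00802 CPM in naive libraries, so the low naive values of marrow-type genes rest on few reads.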
